A study of Mus musculus with 16 samples.

Results

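Genes of B cells and of the plasma cells that B cells become were followed in the bladders of ageing mice, 9 in number: Cd79a, Cd79b, Ms4a1, Pou2af1, Jchain, Mzb1, Tnfrsf17, Blk and Fcrla. They were chosen by name, through the transcript accession that each probe of the array carries, and each of the 9 had exactly 1 probe among the 55681 probes that are not controls. All 9 passed the filter on dim signals and were tested among 26781 genes. Total RNA came from the dissected bladder body of 16 C57BL/6 mice, with 1 mouse on each Agilent 1-colour array and 4 mice in each of 4 groups. Mature mice (MAT, called young in the labels) were 12 months old and aged mice (AGED, called old) were 27 to 30 months old, in males and in females. The labels name no transgene and no agent for any of them.

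B cells recognise antigen through a surface immunoglobulin that signals through the CD79A and CD79B chains, and kinases of the Src family such as BLK pass that signal on. After activation some of them become plasma cells, which secrete antibody and, in mucosal tissues, secrete immunoglobulin A joined by the J chain, which the polymeric immunoglobulin receptor carries across an epithelium. In ageing mouse bladder, B cells and plasma cells can gather with T cells in lymphoid follicles under the urothelium.

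The sequence around the start sites of the members was searched for short motifs, and only windows with a match are printed. No link between a match and the levels of the members was tested. RefSeq promoter windows (GRCm38.p6, 250 bases before and 50 after the start) were at hand for 5 members, which are Cd79a, Fcrla, Jchain, Pou2af1 and Tnfrsf17. The others, Cd79b, Ms4a1, Mzb1 and Blk, were not matched. The E-box CAGGTG, the kind of site that E proteins bind, was searched on both strands together with the octamer ATGCAAAT, which OCT factors and their coactivator OBF1, the product of Pou2af1, recognise in immunoglobulin promoters. Capitals mark the E-box, read as CACCTG where it lies on the other strand. The windows are chr7:24897247-24897546 on the plus strand for Cd79a, chr1:170927534-170927833 on the minus strand for Fcrla and chr5:88527848-88528147 on the minus strand for Jchain.
Cd79a: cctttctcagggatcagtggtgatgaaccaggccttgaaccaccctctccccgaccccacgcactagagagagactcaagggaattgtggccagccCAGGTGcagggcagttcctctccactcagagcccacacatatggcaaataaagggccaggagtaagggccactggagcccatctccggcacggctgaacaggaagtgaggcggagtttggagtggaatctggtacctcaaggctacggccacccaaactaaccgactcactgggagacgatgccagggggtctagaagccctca
Fcrla: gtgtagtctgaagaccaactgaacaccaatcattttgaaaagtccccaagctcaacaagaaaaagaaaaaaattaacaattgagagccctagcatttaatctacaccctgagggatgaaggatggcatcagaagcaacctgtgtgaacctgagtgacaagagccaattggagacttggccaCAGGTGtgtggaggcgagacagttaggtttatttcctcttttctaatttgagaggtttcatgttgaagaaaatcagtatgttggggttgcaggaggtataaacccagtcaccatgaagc
Jchain: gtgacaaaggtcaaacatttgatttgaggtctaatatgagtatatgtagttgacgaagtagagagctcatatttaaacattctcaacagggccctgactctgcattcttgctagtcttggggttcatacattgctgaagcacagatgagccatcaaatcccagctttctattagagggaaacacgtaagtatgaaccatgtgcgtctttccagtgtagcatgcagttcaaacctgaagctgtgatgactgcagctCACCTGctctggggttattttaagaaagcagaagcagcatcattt
The E-box was found in these 3 of the 5 windows and in 20.21% of 32851 promoter windows of that length. Its first base lay at position -154 from the start site in Cd79a, at -69 in Fcrla and at 5 in Jchain. The octamer was found in 0 of the 5 windows and in 1.74% of all windows. A match describes letters in a window, and binding was not measured.

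Values are log2 processed signals less the 75th percentile of their array, so that 0 is the 75th percentile and 1 unit is a 2-fold difference. A level belongs to its probe, and levels of different probes are not compared. A change was called at a limma adjusted p under 0.05 (Benjamini-Hochberg, over all 26781 genes) with at least a 2-fold change. Probes well above background made up 52.4% to 68.3% of an array. The dimmest array, AGED male replicate 1, had a 75th percentile (log2) of 9.18, and those of the remaining arrays ran from 9.83 to 10.8. Urothelial and smooth muscle markers were high throughout, with Upk1a and Acta2 well above background on all 16 arrays. All female arrays lay on 1 slide and all male arrays on the other, with MAT arrays in the first row and AGED arrays in the second row of each. Sex therefore cannot be told apart from slide, nor age from row. In bulk tissue, fewer cells of a type and less RNA per cell cannot be told apart. Every direction follows the label deposited with each array. In the study's list of leading genes the headings run the other way.

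None of the 9 genes was called between AGED and MAT mice in either sex. Blk was not well above background on any male array, so the medians given here are over the other 8 members. In males 7 of these 8 were higher on average in AGED mice and 1 was lower, with a median change of 0.78 on the log2 scale against -0.0015 over all genes tested. In females all 8 were lower on average in AGED mice, with a median change of -0.62 against -0.0067 over all genes. The spread between mice of a group was wide enough that MAT and AGED values overlapped for every member in both sexes. By limma, 0 of the 9 were called in males, where 0.851% of all genes were called, and 0 of the 9 in females, where 0.19% were called. At an unadjusted p under 0.05 the count was also 0 in each sex, where 16.23% of all genes in males and 10.56% in females passed. Groups that did not overlap were found for 0 of the 9 in males and in females, against 7.94% and 10.8% of all genes. The methods' t-test gave 0 calls as well. Since the members follow each other closely from mouse to mouse, as described further on, their common direction is not a count of separate observations.

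**Figure D1:**
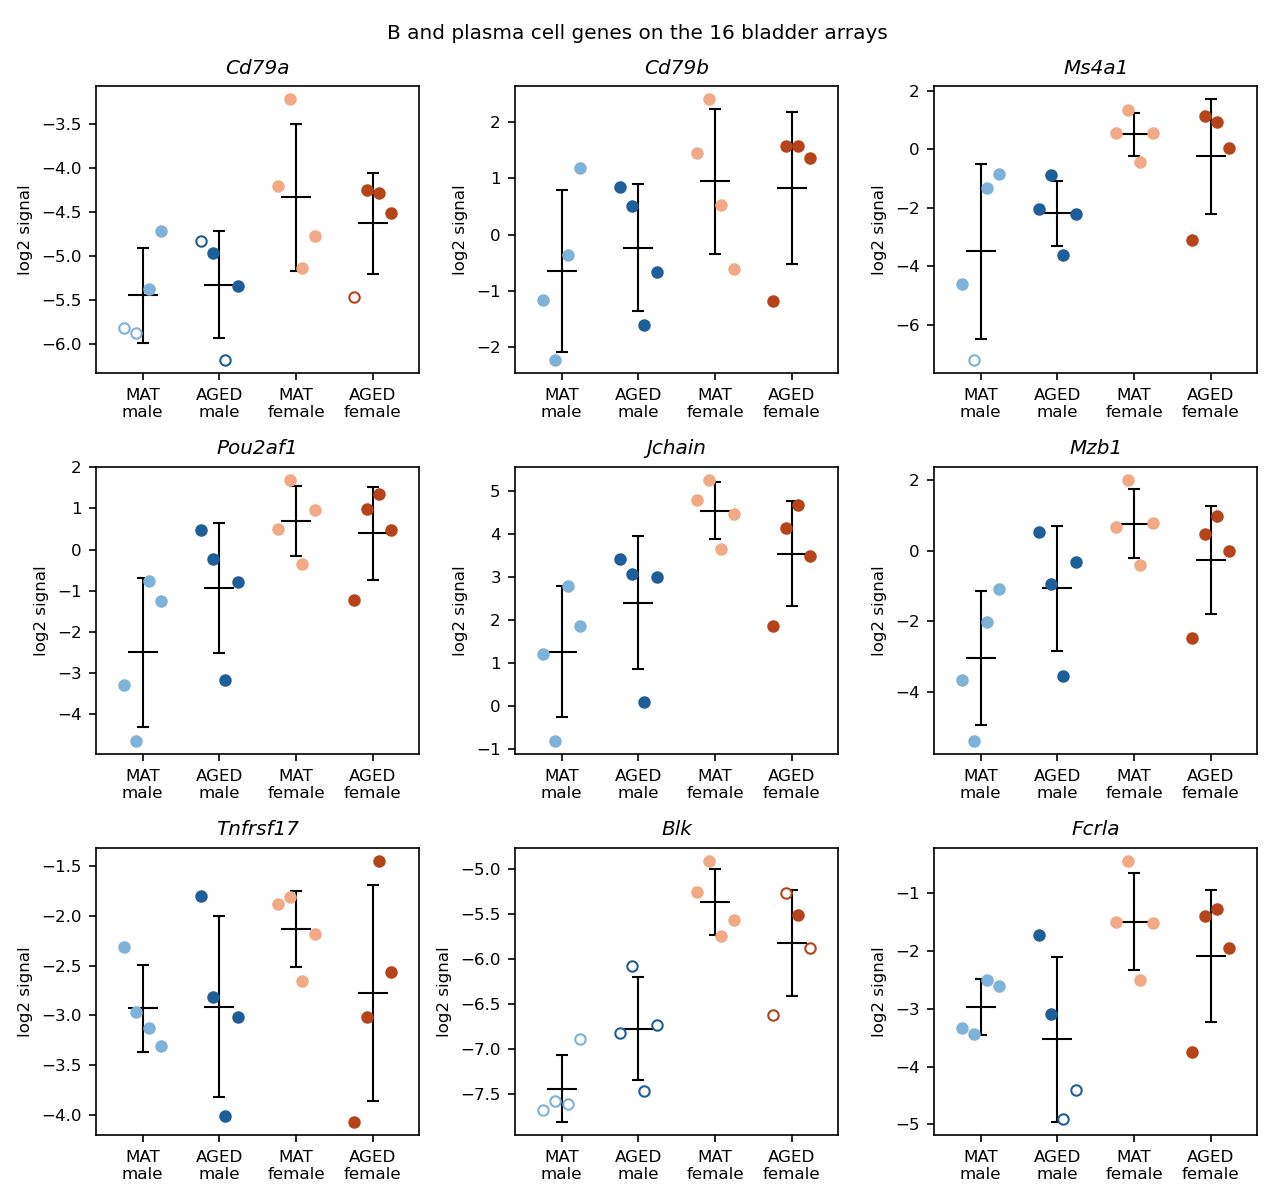
Log2 signal relative to the array's 75th percentile (vertical axis, own range in each panel) of the 9 genes on the 4 arrays of each group, with replicates 1 to 4 from left to right. Open points were not well above background, horizontal bars are group means and whiskers are 1 SD (n = 4). MAT and AGED points overlap in both sexes for every gene, and for 6 genes the MAT female points all lie above the MAT male points.

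Among the genes of antibody secretion, Jchain, which encodes the J chain of polymeric immunoglobulins, was well above background on all 16 arrays. Its level on the MAT male arrays was 1.22, -0.81, 2.79 and 1.86 for replicates 1 to 4, and on the AGED male arrays 3.43, 3.08, 0.10 and 3.01. AGED male replicates 1, 2 and 4 thus lay above all MAT males, and AGED male replicate 3 lay below all MAT males but replicate 2. The fitted difference in males was 1.14 (SE 0.83, limma adjusted p = 0.516), a 2.20-fold higher mean with a 95% interval of -0.63 to 2.91 on the log2 scale. It was 0.45 without MAT male replicate 2 and 1.91 without AGED male replicate 3. The MAT female arrays read 4.80, 5.26, 3.67 and 4.47 for Jchain, and the AGED female arrays 1.87, 4.15, 4.68 and 3.50. Only AGED female replicates 1 and 4 lay below the lowest MAT female. The female difference was -0.999 (SE 0.83, limma adjusted p = 0.738, interval -2.77 to 0.77).

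Mzb1 encodes a chaperone of the endoplasmic reticulum that assists immunoglobulin assembly in marginal zone B cells and plasma cells. Its probe was printed as 10 spots on every array, and the SD between those spots was 0.03 to 0.43 on the log2 scale, with a median of 0.09. Mzb1 read -3.66, -5.38, -2.02 and -1.09 in MAT males and 0.53, -0.93, -3.55 and -0.33 in AGED males. Again 3 AGED males exceeded every MAT male, while AGED male replicate 3 fell among the low MAT males. The MAT males spanned 4.28 log2 units and the AGED males 4.07. Mzb1 had the largest male difference of the 9, at 1.97 (3.91-fold, SE 1.01, interval -0.19 to 4.13, limma adjusted p = 0.351). Leaving out an array moved this value to 1.44 for the dim AGED male replicate 1, to 2.79 for AGED male replicate 3 and to 1.19 for MAT male replicate 2. Female values of Mzb1 were 0.66, 1.99, -0.39 and 0.78 in MAT mice and -2.48, 0.46, 0.99 and -0.01 in AGED mice. The groups overlapped except for AGED female replicate 1, which was lowest, and the difference was -1.02 (SE 1.01, limma adjusted p = 0.796). Without that array it was -0.28.

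Tnfrsf17 encodes BCMA, a receptor for the survival factors APRIL and BAFF on plasma cells. It read -2.31, -2.97, -3.13 and -3.31 in MAT males and -1.80, -2.82, -4.01 and -3.02 in AGED males. In females it read -1.88, -1.81, -2.66 and -2.18 in MAT mice and -4.07, -3.02, -1.45 and -2.56 in AGED mice. Male values of both ages were interleaved, with a difference of 0.02 (SE 0.50, limma adjusted p = 0.990), and the sign of this value turned with median scaling, with array weights and when some single arrays were left out. AGED females held both the lowest and the highest female value, and the difference was -0.64 (SE 0.50, limma adjusted p = 0.714).

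Pou2af1, the coactivator OBF1 that B cells need to form germinal centres, read -3.29, -4.64, -0.77 and -1.24 in MAT males and 0.47, -0.24, -3.16 and -0.78 in AGED males. AGED male replicates 1 and 2 lay above all MAT males, and replicates 3 and 4 fell inside the MAT range. The mean was 1.56 higher in AGED males (2.94-fold, SE 0.89, interval -0.35 to 3.46, limma adjusted p = 0.405), and 0.84 higher without MAT male replicate 2. In females Pou2af1 read 0.50, 1.69, -0.34 and 0.96 in MAT mice and -1.22, 0.97, 1.34 and 0.47 in AGED mice. Apart from the low AGED female replicate 1 these values were interleaved. The difference of -0.31 (SE 0.89, limma adjusted p = 0.952) became 0.23 without that array.

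Ms4a1 encodes CD20, a surface protein of mature B cells that plasma cells lack. Its values were -4.59, -7.21, -1.32 and -0.84 in MAT males, -2.03, -0.89, -3.61 and -2.22 in AGED males, 0.57, 1.33, -0.43 and 0.57 in MAT females and -3.11, 1.15, 0.92 and 0.06 in AGED females. The MAT male arrays spanned 6.37 log2 units, an 82.4-fold range, and replicate 2 was not well above background. The AGED males fell between these extremes. The male difference was 1.30 (SE 1.22, limma adjusted p = 0.622), and 0.06 once MAT male replicate 2 was left out. In females the difference was -0.75 (SE 1.22, limma adjusted p = 0.897), and 0.20 without AGED female replicate 1.

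Of the chains of the B cell receptor, Cd79b was well above background on every array and Cd79a on 11 of 16. Cd79b read -1.18, -2.24, -0.36 and 1.18 in MAT males and 0.85, 0.51, -1.61 and -0.67 in AGED males. In females Cd79b read 1.45, 2.42, 0.53 and -0.61 in MAT mice and -1.19, 1.58, 1.58 and 1.37 in AGED mice. AGED and MAT values of Cd79b were interleaved in both sexes. Its differences with age were 0.42 in males (SE 0.84, limma adjusted p = 0.834) and -0.11 in females (SE 0.84, limma adjusted p = 0.982). Both signs turned when single arrays were left out. Cd79a spanned -6.19 to -4.72 over the 8 male arrays and -5.47 to -3.21 over the 8 female arrays, and differed with age by 0.12 in males and -0.29 in females (SE 0.42 each).

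Blk, a Src family kinase of the B lineage, was close to background and was well above it on 5 of the 16 arrays, 4 of MAT females and 1 of AGED females. Its male values, -7.68 to -6.88 in MAT and -7.46 to -6.07 in AGED mice, were all below that limit, so no fold is given for males. Fcrla encodes an intracellular Fc receptor-like protein found in germinal centre B cells. It was the member that was lower on average in AGED males, at -3.33, -3.43, -2.51 and -2.61 in MAT males and -1.72, -3.09, -4.91 and -4.40 in AGED males. The AGED males lay on both sides of the MAT males, with replicates 3 and 4 not well above background and replicate 1 the highest of all 8. The difference was -0.56 (SE 0.66, limma adjusted p = 0.703) in males and -0.59 (SE 0.66, limma adjusted p = 0.824) in females.

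Whether the age difference itself differed between the sexes was tested as the male change minus the female change. This value was positive for all 8 members other than Blk, with a median of 1.26 against 0.01 over all genes. It was called for 0 of the 9, with 0.187% of all genes called. At an unadjusted p under 0.05 the count was 1 of the 9, against 9.84% of all genes, and this was Blk, whose male part is a difference between values not well above background. Mzb1 had the largest value, 2.99 (SE 1.43, interval -0.06 to 6.04, limma adjusted p = 0.516), and Jchain followed with 2.14 (SE 1.17, limma adjusted p = 0.588). Fcrla had the smallest, 0.03, and its sign turned with median scaling, normexp correction and array weights. The intervals of Mzb1 and Jchain allow both no difference and differences of several fold.

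**Figure D2:**
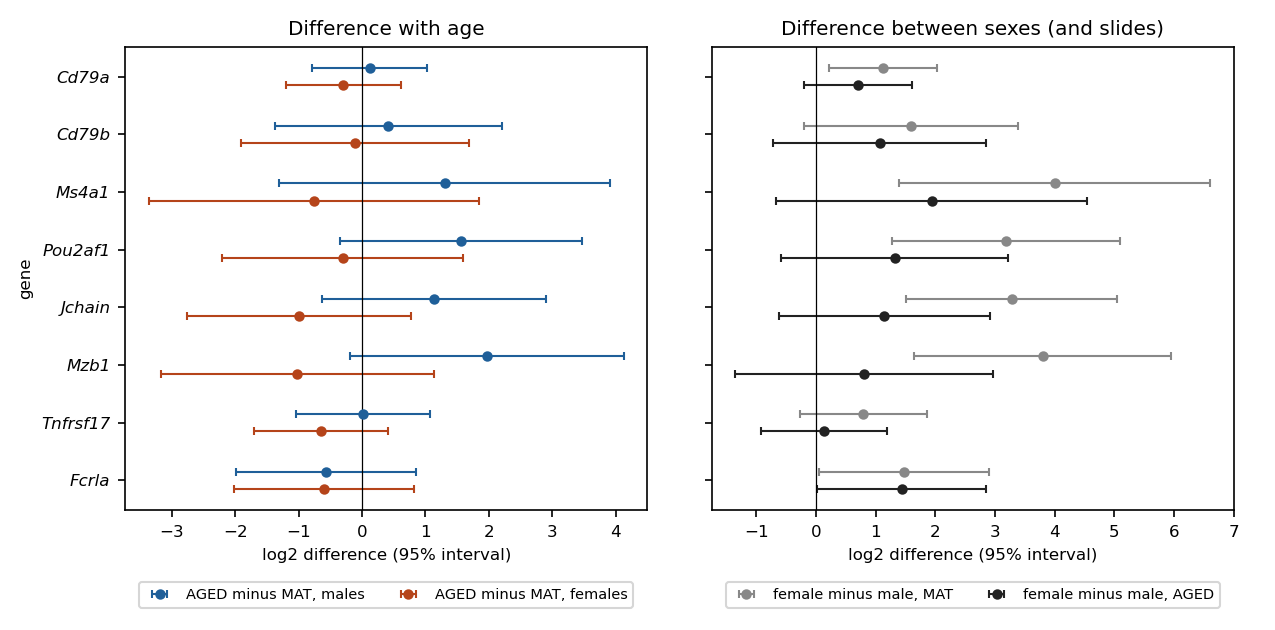
Fitted log2 differences (points) with 95% intervals (lines) of the 8 genes other than Blk, for AGED minus MAT mice in males and females on the left and for females minus males in MAT and AGED mice on the right. The age intervals all include 0, and the points for the differences between the sexes, which are also differences between the slides, lie to the right of 0 in both ages. Blk is not drawn, since no male array measured it above background.

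The wider gap lay between the sexes of the MAT mice. This comparison was added after the values had been seen. All 8 members other than Blk were higher on average in MAT females than in MAT males, with a median difference of 2.39 on the log2 scale against -0.07 over all genes. The groups did not overlap for 6 of the 9, Ms4a1, Pou2af1, Jchain, Mzb1, Blk and Fcrla, with all females higher in a pattern that 4.54% of all genes showed. Ms4a1 was 15.98-fold higher (log2 4.00, SE 1.22, limma adjusted p = 0.161), Mzb1 13.9-fold (3.80, SE 1.01, limma adjusted p = 0.120), Jchain 9.72-fold (3.28, SE 0.83, limma adjusted p = 0.109) and Pou2af1 9.1-fold (3.19, SE 0.89, limma adjusted p = 0.135). None of these 4 passed the adjusted threshold, although 7 of the 9 members had an unadjusted p under 0.05 against 13.84% of all genes. Blk is among the 6 and among the 7, and it passed the filter on dim signals through the female arrays. The members followed each other from mouse to mouse, so these are not counts of separate observations. Without MAT male replicate 2 the differences were 2.76 for Ms4a1, 3.02 for Mzb1, 2.59 for Jchain and 2.47 for Pou2af1. Without MAT male replicate 4 they were 4.88 for Ms4a1 and 4.44 for Mzb1, and without replicate 3 they were 4.72 for Ms4a1. With array weights, which give arrays far from their group less influence, 5 members were called, these 4 and Blk, while the genes called higher over the whole array rose from 17 to 417 (1.56%).

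Blk was the 1 member called as higher in MAT females, where 0.0635% of all genes were called in that direction. It passed the filter on dim signals through the female arrays, and a filter of 8 of 16 arrays left it out, so its call comes from a probe that was kept because of the group in which it is high. Blk read -5.25, -4.91, -5.74 and -5.57 in MAT females, each above background, and -7.68, -7.58, -7.60 and -6.88 in MAT males, none above it. With male values raised to the dimmest signal well above background on their array, the Blk mean was 1.28-fold higher in MAT females. The limit of a single probe can lie above that signal, so this fold is not a lower bound. For the measured signals the limma adjusted p was 0.0178. The call was lost with a floor on low signals (0.36, limma adjusted p = 0.447) and with normexp background correction (0.14, limma adjusted p = 0.655). It was also lost when MAT male replicate 1, 2 or 3 or MAT female replicate 1 or 2 was left out.

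For Fcrla the MAT female values were -1.51, -0.45, -2.50 and -1.52, and the lowest of them lay just above the highest MAT male. Its difference was 1.47 (2.78-fold, SE 0.66, limma adjusted p = 0.347). Cd79b was 1.59 higher in MAT females (SE 0.84, limma adjusted p = 0.424), Cd79a 1.12 higher (SE 0.42, limma adjusted p = 0.259) and Tnfrsf17 0.80 higher (SE 0.50, limma adjusted p = 0.503), with overlapping groups for each.

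In AGED mice all 8 members other than Blk were again higher on average in females, by 0.14 for Tnfrsf17 to 1.94 for Ms4a1, and the median was 1.10 against -0.08 over all genes. The sexes overlapped for every member, so 0 of 9 were separated while 4.9% of all genes had all AGED females higher, and 0 of 9 were called against 1.89% of all genes called higher. At an unadjusted p under 0.05 the count was 2 of the 9, Fcrla (2.71-fold, limma adjusted p = 0.187) and Blk, against 25.8% of all genes. No fold is given for Blk, which was well above background on 1 AGED female array and on no AGED male array. Jchain differed by 1.14 (2.21-fold, SE 0.83, limma adjusted p = 0.411) and Mzb1 by 0.81 (1.75-fold, SE 1.01, limma adjusted p = 0.653). Left without AGED male replicate 3, the Mzb1 difference was -0.02. The change of the sex difference between ages is the same quantity as the difference of the age changes given above, for which no member was called.

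The order of the 4 group means was MAT female, AGED female, AGED male and MAT male, from highest to lowest, for every member but Fcrla, in which the males exchanged places, and Blk, whose male groups have no order below background. In Tnfrsf17 the male means lay only 0.02 apart. No neighbours in this order were called different for the other members.

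The 9 genes mostly rose and fell together from mouse to mouse within the groups. AGED male replicate 3 had the lowest value of its group for all 9 members, and so had AGED female replicate 1. Blk was well above background on no male array and on 1 AGED female array, so its order there is not resolved. Cd79a and Fcrla were also not well above background on AGED male replicate 3. MAT female replicate 2 had the highest of its group for all 9. MAT female replicate 3 was lowest for 8 members and MAT male replicate 2 for 7. Tnfrsf17 ran otherwise in MAT males, with its highest value in replicate 1 and its lowest in replicate 4, which was highest for 5 members. Pearson correlations between members over the 16 arrays ran from 0.45 to 0.97 for the 36 pairs, with a median of 0.84. After each group's mean was subtracted they ran from 0.32 to 0.96, with a median of 0.78, and all 36 were above 0. Both lowest values were those of Ms4a1 and Tnfrsf17. The points share their arrays, their RNA extracts and the scaling constant of each array, and no test was made of them. Values not well above background were included in the correlations.

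**Figure D3:**
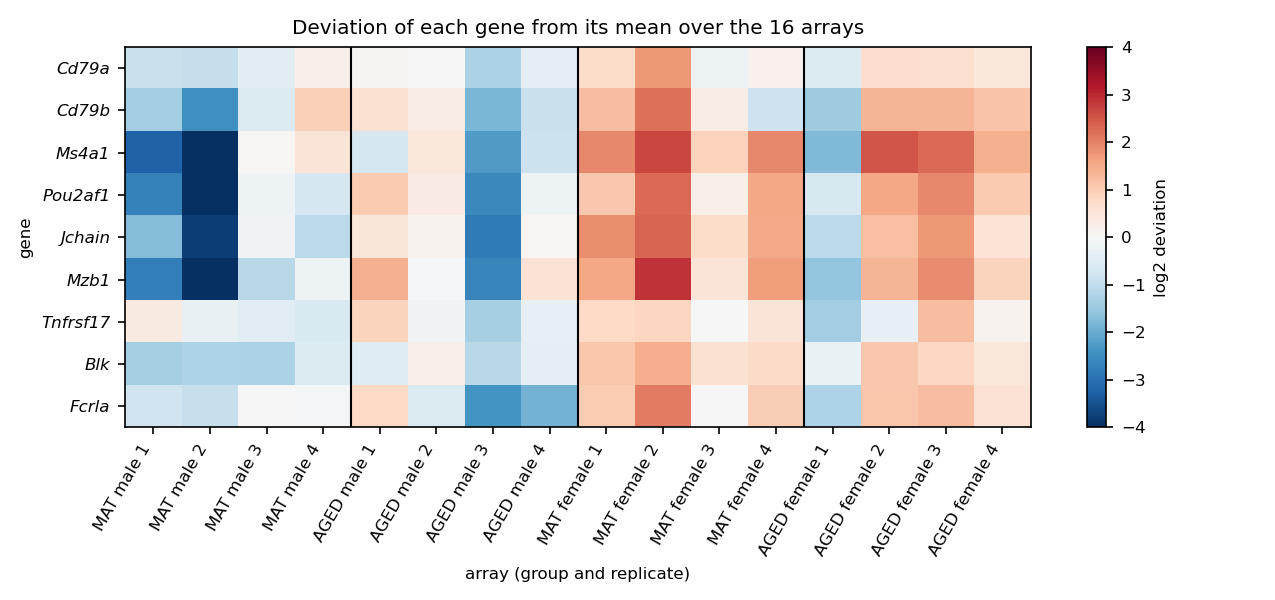
Deviation of each gene (rows) on each array (columns, by group and replicate) from that gene's mean over the 16 arrays, in log2 units, red above and blue below, with deviations beyond 4 units drawn in the end colour. The columns of MAT male replicate 2, AGED male replicate 3 and AGED female replicate 1 are blue through nearly all rows and the column of MAT female replicate 2 is red.

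This variation within groups was large against that of other genes. The residual SD around the group means was 0.49 for Blk to 1.91 for Ms4a1 on the log2 scale, while the median over all genes was 0.30. The members thus stood between the percentiles 79.23 and 99.76 of all genes by residual SD. Within a group of 4 mice Jchain ranged over 3.02-fold in MAT females and 12.1-fold in MAT males, and Mzb1 over 5.23-fold in MAT females and 19.5-fold in MAT males.

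The genes most like the members were found by correlation with the mean of the 9 scaled members over the 16 arrays. Tnfrsf13c, which encodes the BAFF receptor of mature B cells, came first (r = 0.99, n = 16 arrays). Among the others of the 10 most alike were Bfsp2 (r = 0.96), Gpr18, Oosp1, Cacna1s, Derl3, Cxcr5, Spib and E2f2 (r = 0.93), with the same shared arrays as above. Tnfrsf13c, Cxcr5, Spib and Derl3 stood on the lists of other B cell and plasma cell genes described next. All 10 were higher in MAT females than in MAT males with groups that did not overlap and none was called, a pattern that their choice by likeness to the members over the same arrays builds in. Cxcr5, the receptor that guides B cells into follicles, was 10.8-fold higher (3.44, SE 0.91, limma adjusted p = 0.118), with 2 MAT male arrays not well above background.

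Other genes of the lineage were taken from lists by role. Of 13 further B cell surface genes, all tested, 5 were higher and 8 lower on average in AGED males, and 3 were higher and 10 lower in AGED females, with 0 called in either sex. The medians were -0.11 in males and -0.39 in females. In MAT females 11 of the 13 were higher than in MAT males, 7 of them without overlap, by a median of 0.71 and with 0 called. Over all genes, 4.54% were higher in MAT females without overlap. In AGED females 11 of the 13 were higher than in AGED males and 2 were called, Cd72 (log2 2.17, limma adjusted p = 0.0251) and Cd180 (limma adjusted p = 0.00980). In that direction 1.89% of all genes were called. Cd180 was not well above background on any male array and passed the filter through the female arrays, so no difference in size is given for it.

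Of 17 genes of B cell transcription and signalling 14 were tested, since the other 3, Pax5 and Pik3ap1 among them, were above background on too few arrays. Their median changes with age were -0.11 in males and -0.15 in females, with 0 called. The median difference between MAT females and MAT males was 0.35 with 10 higher, 4 without overlap (against 4.54% of all genes) and 0 called. Between AGED females and AGED males 1 of the 14 was called, against 1.89% of all genes called higher. This was the kinase gene Lyn (1.23 higher, limma adjusted p = 0.00670), which myeloid cells also use. Blnk and Syk, adaptor and kinase below the B cell receptor, differed by -0.38 and 0.36 between MAT females and MAT males.

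Of 15 further plasma cell genes, all tested, 8 were higher in AGED males and 9 in AGED females, with medians of 0.09 and 0.03 and 0 called. In MAT females 12 of the 15 were higher than in MAT males (median 0.43, 5 without overlap against 4.54% of all genes, 0 called). Among them was Derl3, a factor of protein export from the endoplasmic reticulum, at 5.42-fold (log2 2.44, SE 0.63, limma adjusted p = 0.118). Xbp1, the transcription factor of secretory cells that epithelium also uses, differed by -0.04 in the same comparison. In AGED females Prdm1, which encodes the plasma cell regulator BLIMP1, was called as 2.03-fold higher than in AGED males (limma adjusted p = 0.0380). Over all genes 1.89% were called in that direction.

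Of 19 genes named for immunoglobulins and their receptors 3 had a probe matched by accession and 1 was tested, Pigr, the epithelial receptor that transports polymeric immunoglobulin. Antibody heavy and light chains are not analysed here. Pigr lay between 4.14 and 5.94 on all 16 arrays and changed with age by -0.15 in males and 0.01 in females (SE 0.29 each). Its lowest value was that of AGED male replicate 3. All members read lowest there among AGED males, with Blk, Cd79a and Fcrla not well above background. Other arrays went the other way. Pigr read 5.70 on AGED female replicate 1, where all members were lowest of their group, and only replicate 4 was higher. On MAT female replicate 2, where all members were highest, Pigr had its lowest value of that group, 5.19.

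Of 16 signals of B cell survival and homing 13 were tested, and 1 was called with age, Cxcl13, the chemokine that draws CXCR5-bearing B cells into follicles. Cxcl13 read -0.53, -1.14, -0.46 and -0.23 in MAT males and 5.53, 2.84, 4.43 and 1.98 in AGED males. Every AGED male lay far above every MAT male (log2 4.29, 19.5-fold, SE 0.54, limma adjusted p = 0.00126). Of all genes 0.851% were called with age in males. AGED male replicate 1 had the highest Cxcl13 of its group and also the highest value of 7 of the 9 members. AGED male replicate 3, next in Cxcl13, was the lowest for all 9 members, with Blk, Cd79a and Fcrla not well above background there. In females Cxcl13 was 0.79 higher with age (SE 0.54, limma adjusted p = 0.659). MAT females had 1.34 more Cxcl13 than MAT males (SE 0.54, limma adjusted p = 0.293), which was not called. AGED females had 2.15 less than AGED males (limma adjusted p = 0.024), which was called.

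Markers of other cell types moved with the members in some comparisons. All 11 T cell markers tested were higher on average in AGED males (median 0.77), lower in AGED females (median -0.21) and higher in MAT females than in MAT males (median 1.19, 8 without overlap), with 0 called in each. Of all genes 4.54% were higher in MAT females without overlap. The mean of the T cell list ranged from -1.81 to -1.26 in MAT males, -1.98 to 1.04 in AGED males, -0.75 to -0.22 in MAT females and -1.54 to -0.13 in AGED females. The highest AGED male was replicate 1, the dimmest array, while AGED male replicates 2 to 4 read -0.98, -1.98 and -1.52. The 8 pan-leucocyte markers were all higher in MAT females than in MAT males, with a median of 0.50, while the 8 macrophage markers had a median of -0.15 there. With age, the 8 macrophage markers had medians of 0.36 in males and 0.42 in females. Their list mean was 3.25 on AGED male replicate 1, the dimmest array. AGED male replicates 2 to 4 read 2.31, 2.34 and 2.23, within the MAT male range of 2.13 to 2.37. In females the lowest AGED mean, 2.34, lay above the highest MAT mean, 2.22. The 6 dendritic cell markers tested had median changes with age of -0.59 in males and -0.02 in females. The 6 neutrophil markers tested had medians of 1.07 in males and 1.20 in females, and their list mean ran from -2.24 to -1.35 in MAT males and from -1.31 to 0.01 in AGED males. S100a9 (8.46-fold, limma adjusted p = 0.0125) and S100a8 (5.39-fold, limma adjusted p = 0.021), both neutrophil genes, were called in AGED males. Over all genes 0.851% were called there. Of the 6 neutrophil markers 4 were higher and 2 lower in AGED males, with Csf3r among the lower (-0.04, limma adjusted p = 0.884).

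Adipocyte markers followed the same direction between the sexes. All 7 were higher in MAT females than in MAT males, by a median of 3.11, with 6 without overlap (against 4.54% of all genes) and 0 called. Their list mean ranged from -3.90 to 0.24 in MAT males, -4.06 to 0.12 in AGED males, 1.13 to 2.90 in MAT females and 0.23 to 1.28 in AGED females. The lowest adipocyte means of their groups were those of MAT male replicate 2, AGED male replicate 3 and AGED female replicate 1, where the B and plasma cell genes were also low. In MAT females the orders differed, with the lowest adipocyte mean in replicate 4 and the highest in replicate 1, while the members were lowest mostly in replicate 3 and highest in replicate 2. The highest adipocyte means of AGED males (replicate 4, 0.12) and AGED females (replicate 4, 1.28) were on arrays that were highest for 0 members. AGED male replicate 1, highest for 7 members, had an adipocyte mean of -2.04. In MAT males replicate 4 had the highest adipocyte mean (0.24) and was highest for 5 members. Adipoq, which encodes the fat hormone adiponectin, was not well above background on the first and second of these 3 arrays and was above it on the other 14. The urothelial list differed by a median of -0.30 and the smooth muscle list by -0.12 between MAT females and MAT males. Of 9 male accessory gland genes 1 passed the filter on dim signals. The part of adipocyte and T cell RNA in the values of the members was not tested.

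**Figure D4:**
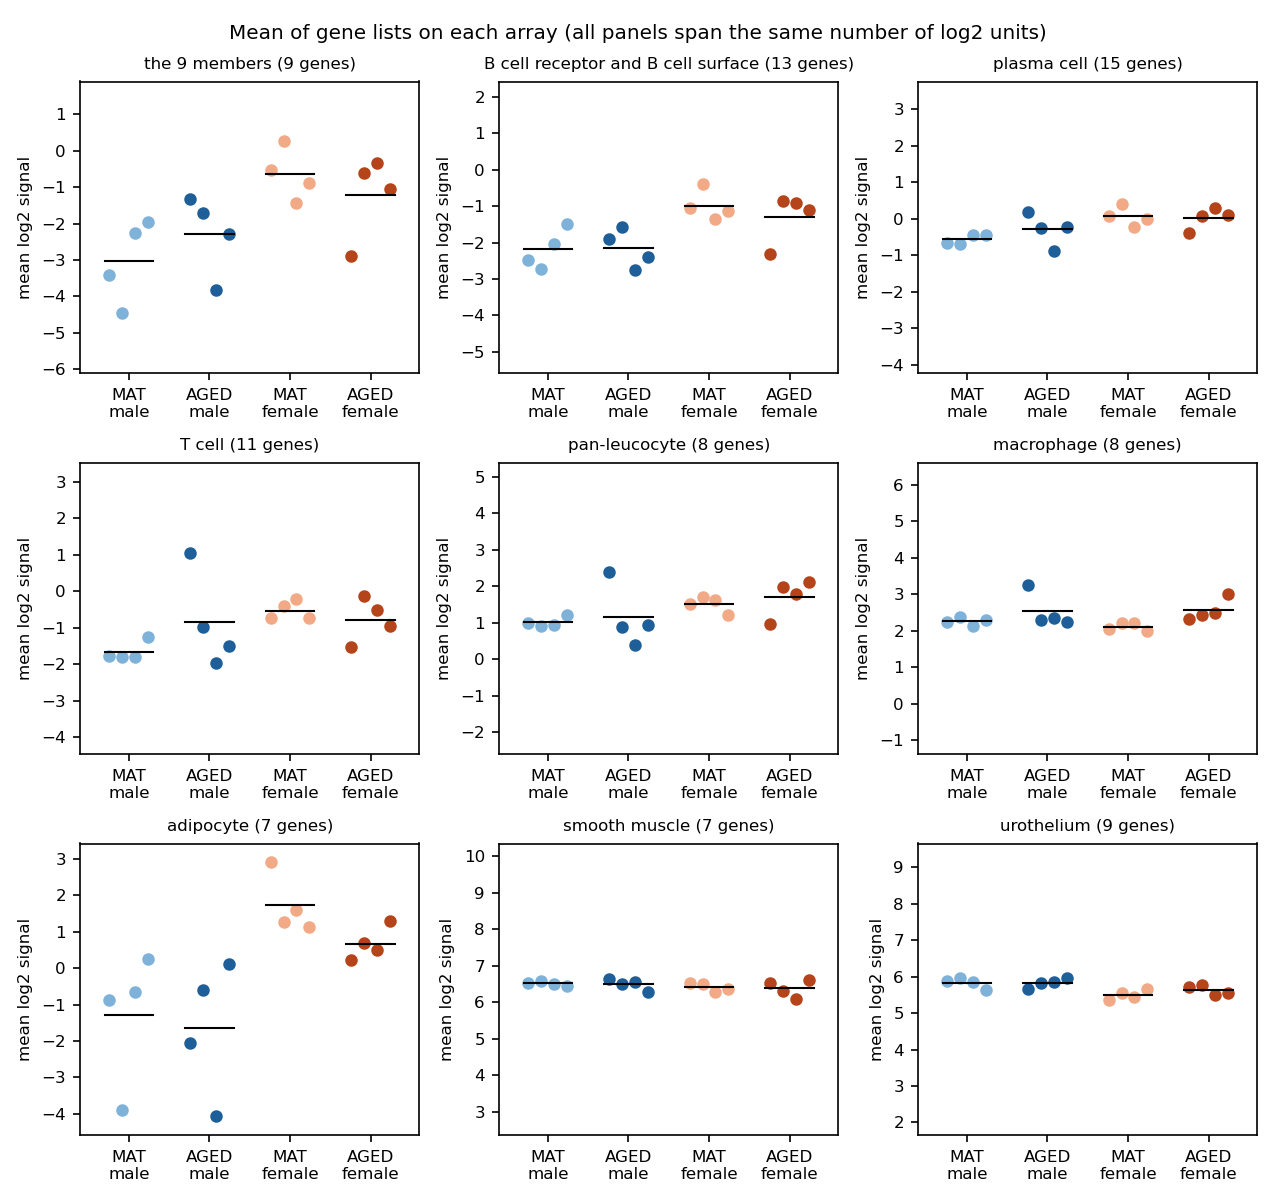
Mean log2 signal of the tested genes of a list on each of the 16 arrays, by group, with group means as lines and replicates 1 to 4 from left to right. The vertical axes span the same number of log2 units, and the members and the adipocyte and T cell lists vary more between arrays than the smooth muscle and urothelium lists do.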

How the data were processed

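RNA of 16 bladders was measured on Agilent SurePrint G3 mouse arrays. The authors scanned them and deposited, per spot, the intensity that Feature Extraction wrote (version 10.7.3.1 in the file headers, 9.1 in the submitters' processing notes), with background subtracted and no scaling between arrays. They also deposited a table of log2 values, which was checked against the scanner files and equals the log2 processed signal less the array's 75th percentile, centred per probe, with column medians of -0.125 to 0.29. It served as an alternative.

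From the processed signals, controls and outlier-flagged spots (399 probe values) were dropped, log2 values of spots of a probe were averaged, and the 75th percentile of each array was subtracted. No spot was saturated. Probes were named through RefSeq accessions (GRCm38.p6, names only), which matched 26576 of 55681 probes. The array design uses another build, so no coordinates of genes are given beyond the RefSeq windows printed. Probes well above background on at least 4 of 16 arrays were kept (36972), and a gene with several was represented by the one with the highest mean. Group means were fitted over 16 arrays (12 residual degrees of freedom) with limma 3.58.1 in R 4.3.3, and all p-values of that model are two-sided. Each member had 1 probe, so no probe was chosen among several and the planned exact permutation test of single values was not needed. For the fold of Blk between MAT females and MAT males, each male value was replaced, where smaller, by the dimmest signal well above background on that array. The procedure was tested on simulated data.

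The members and the 15 gene lists (B cell surface, B cell transcription and signalling, plasma cell, immunoglobulin, B cell survival and homing, T cell, macrophage, neutrophil, dendritic cell, pan-leucocyte, urothelium, smooth muscle, adipocyte, male accessory gland and blood) were chosen with earlier results of these data known. Genes named besides the members are the 3 with the highest signal of each list, called genes of the B lineage lists and the 10 most like the members. Others (Cxcr5, Derl3, Cd72, Cd180, Lyn, Prdm1, Adipoq, S100a8, S100a9) were named for the results beside them after their values were seen where this rule does not give them. The comparisons between the sexes and the medians without Blk were added after the values were seen. The number of arrays limits the precision. The values of some genes of the lists are not reported here.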

Additional observations from a re-analysis of the deposited data

Results flagged for a closer look

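Values were set apart where 1 array of a group of 4 lay so far from the other 3 that the gap, as a share of the group's range, passed Dixon's 95% limit. Chance gives about 1 in 20 such groups, and 3 of 36 groups of member values (8.33%) passed, with 11 of 164 for other named genes (6.71%), 3 of 64 for list means (4.69%) and 2 of 12 for array measures (16.67%).

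Among the members, Jchain was low in AGED male replicate 3 (0.10 on the log2 scale against 3.01 to 3.43 in the other 3, share 0.874). Cd79b was low in AGED female replicate 1 (-1.19 against 1.37 to 1.58, share 0.924), and so was the mean of the B cell transcription and signalling list on that array (share 0.886). Blk was high in MAT male replicate 4 (share 0.873), with all MAT male values not well above background.

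AGED male replicate 1 had a low 75th percentile of log2 signal (share 0.890) and stood apart for Plcg2 (lower, 0.831), Blnk (higher, 0.849), Cd4 (higher, 0.856), Csf1r (higher, 0.912), C1qa (higher, 0.885) and the macrophage mean (higher, 0.890). MAT male replicate 4 stood apart for Cd3e (higher, 0.9365), Itgax (lower, 0.903) and the T cell mean (higher, 0.946). The remaining ones were Cd24a in MAT male replicate 1 (0.867), Plcg2 in MAT male replicate 3 (0.833), the median signal of MAT female replicate 3 (0.882), and Siglech (0.909) and Upk1a (0.931) in AGED female replicate 3, all lower than the other 3 arrays.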

How the results depend on the processing

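In males, females and the difference of their age changes, 0 members were called under every alternative that was run, of 9 tested, or of 8 with a filter of 8 of 16 arrays, which leaves out Blk. Replicate numbers of the labels mark columns of the slides, and same-numbered arrays did not deviate together (correlations -0.15 to 0.07). With a replicate block 0 members were called with age and 1 between the sexes of MAT mice. Over all genes, the number called went from 228 to 187 in males and from 51 to 3 in females. For the difference of age changes it went from 50 to 12. The count called between MAT females and MAT males, 1, became 0 with normexp, with a filter of 8 of 16 arrays (Blk not tested) and with a floor, 6 with the methods' t-test unadjusted, 7 with limma unadjusted and 5 with array weights, settings under which 419, 472 and 417 of all genes were called higher against 17, and ranged from 0 to 1 over left-out arrays. Between the sexes of AGED mice the count of 0 became 1 with quantile normalization, normexp and limma unadjusted, and 0 to 1 over left-out arrays.

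Signs turned for values that were not called. Median scaling gave -0.041 for Tnfrsf17 in males and -0.0056 for the Fcrla difference of age changes. Array weights gave -0.19 and -0.25 for these. Normexp gave -0.20 for that Fcrla value, and -0.16 for Cd79a and -0.24 for Blk between the sexes of AGED mice. A floor gave -0.12 for Blk there. Over left-out arrays the male change ran from -0.047 to 0.41 for Cd79a, -0.11 to 1.03 for Cd79b and -0.35 to 0.39 for Tnfrsf17. The female change ran from -0.56 to 0.079 for Cd79a, -0.63 to 0.56 for Cd79b, -1.22 to 0.20 for Ms4a1 and -0.65 to 0.23 for Pou2af1. The difference of age changes ran from -0.15 to 1.14 for Cd79b and -0.57 to 0.49 for Fcrla. The female less male difference in AGED mice ran from -0.015 to 1.55 for Mzb1 and -0.30 to 0.57 for Tnfrsf17. The cause was not tested. Slide as a block was not run, since it is the same split as sex. Cd79a, Blk and Fcrla lay near background on many arrays, which limits their values.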
